A study of Mus musculus with 6 samples.

Results

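The 43 genes described here encode the Toll-like receptors, their co-receptors and cytosolic counterparts, and the proteins that carry their signal to the transcription factor NF-κB, out of 52550 genes listed for each sample. They were chosen by name and pathway layer, with earlier results of these data known, and they fall into 10 layers from receptor to cytokine. RNA of the colon epithelium was sequenced in 6 male C57BL/6 mice aged 6 to 8 weeks by the labels when the experiment began. In 3 *Zfp90*fl/fl mice, the controls, *Zfp90* carried an exon and the 3′ UTR between loxP sites, and 3 *Zfp90*ΔIEC mice carried the same alleles with Villin-cre, which cuts them in intestinal epithelial cells. All 6 mice were treated alike with AOM-DSS, a model of colitis-associated cancer in which 10 mg/kg of the carcinogen azoxymethane was followed, from day 5, by 3 cycles of dextran sulfate sodium (2% in the sample labels, for 7 days) and plain water (14 days), with euthanasia on day 80. The study's methods name another age and another concentration of dextran sulfate sodium than the labels. There was no untreated group, and since the genotypes were housed apart, cage and genotype cannot be told apart.

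Toll-like receptors bind conserved molecules of microbes, such as lipopolysaccharide (LPS), bacterial lipoproteins, flagellin and nucleic acids. Most pass the signal through MyD88 and the IRAK kinases to TRAF6 and the kinase TAK1, which switches on the IκB kinase complex. That complex marks the inhibitory IκB proteins for destruction and so frees NF-κB dimers to enter the nucleus, where they transcribe cytokine genes and also the genes of their own inhibitors. In the colon the epithelium lies beside a dense microbiota, and both epithelial cells and the leukocytes among them can carry these receptors.

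Levels are given in FPKM, a count of sequenced fragments divided by transcript length and by depth. Differences are *Zfp90*ΔIEC minus *Zfp90*fl/fl on the log2(FPKM + 1) scale, which understates the change of low genes. They were tested with limma over the 11564 genes that reached 1 FPKM in 3 or more samples, and adjusted p-values are Benjamini-Hochberg values over all of these genes, with a threshold of 0.05. Of the 43 members, 38 could be tested, and *Tlr6*, *Tlr7*, *Tlr8*, *Tlr9* and *Irak3* lay below the filter. *Zfp90* itself read 0.629, 0.4900 and 0.569 FPKM in the control replicates 1, 2 and 3 against 0.0846, 0.195 and 0.166 FPKM in the deleted ones, so all 6 libraries matched the genotype of their titles. The genotype field of *Zfp90*ΔIEC replicates 2 and 3 names *Zfp91* and *Zfp92* in place of *Zfp90*, but *Zfp91* was at 17.4 FPKM in *Zfp90*fl/fl and 17.1 FPKM in *Zfp90*ΔIEC mice. *Zfp92* was scarcely detected, at means of 0.0395 and 0.0339 FPKM in the same order, so its level cannot show whether it was deleted. Depth was estimated from the steps between low FPKM values at 25.7 to 28.7 M fragments per library. The 8 epithelial markers, such as *Epcam* and *Cdh1*, summed to between 5453 and 6158 FPKM in *Zfp90*fl/fl and between 5312 and 5911 FPKM in *Zfp90*ΔIEC mice, as the tissue label says.

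The data show a single member past the threshold. *Cd14*, the LPS co-receptor, fell to 54.1% of its *Zfp90*fl/fl level. *Tlr2* and the NF-κB subunit genes *Nfkb2*, *Rel* and *Relb* were lower in each *Zfp90*ΔIEC mouse than in any *Zfp90*fl/fl mouse but did not pass the adjusted threshold, and neither did any adaptor or kinase between receptor and NF-κB. At an adjusted p under 0.05, 1 of the 38 members tested was lower and 0 were higher, where 0.199% of all genes tested passed in either direction, 0.13% as lower and 0.0692% as higher. Before adjustment, 8 members were lower (21.1%) and 0 were higher at p under 0.05, against 8.09% and 6.56% of all genes tested (14.6% in either direction). In 10 members every *Zfp90*ΔIEC value lay below every *Zfp90*fl/fl value and in 0 members above it, against 12.6% and 8.73% of all genes tested (21.3% in either direction), and under median ratio scaling, where *Ly96* overlaps, the 10 are 9. One of these, *Nod2*, was tested only because its *Zfp90*fl/fl values reached 1 FPKM, and without it the counts are 7 and 9. *Nfkbie*, still in both counts, also owed its test to the *Zfp90*fl/fl mice. It reached 1 FPKM in all of them but among the *Zfp90*ΔIEC mice only in replicate 3, at 1.007 FPKM. Leaving out *Zfp90*fl/fl replicate 3 took the count of 8 to 4, and the other mice took it to between 6 and 8. The median difference over the members tested was -0.10, against -0.02 over all genes tested. Cells of a type becoming fewer and cells holding less of an RNA cannot be told apart in such bulk samples.

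**Figure D1:**
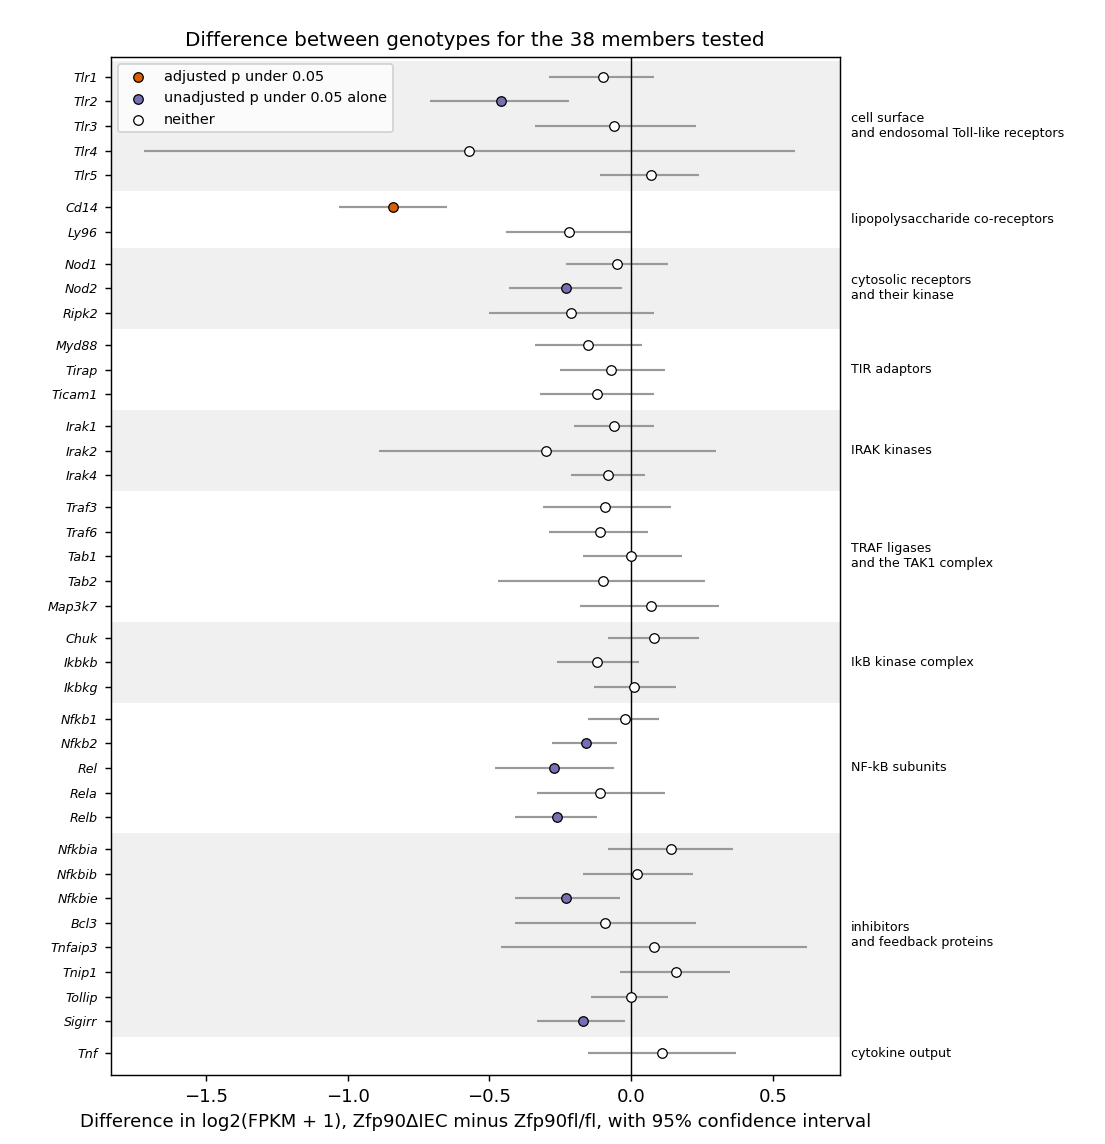
Difference in log2(FPKM + 1) between genotypes (x axis, *Zfp90*ΔIEC minus *Zfp90*fl/fl) for the 38 members tested, ordered by layer, with the 95% confidence interval from limma as a bar. Filled orange marks an adjusted p under 0.05, which *Cd14* at -0.84 alone reaches, filled violet marks the other 7 members with an unadjusted p under 0.05, all left of 0, and the widest interval is that of *Tlr4*.

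NF-κB dimers bind a 10-base κB site, and several of the genes studied are known to be transcribed by NF-κB themselves, so the promoters were searched for the κB consensus on both strands. RefSeq promoter sequences (GRCm38.p6) were at hand for 33 of the 43 members, not for *Cd14*, *Relb* and 8 others. In the 250 bases before the start of transcription, 11 of these 33 members (33.3%) held at least 1 match, against 8.23% of the 27025 genes with such a sequence. The 11 were *Irak1*, *Map3k7*, *Nfkb2*, *Nfkbia*, *Nfkbie*, *Rel*, *Tlr2*, *Tlr3*, *Tnfaip3*, *Tnip1* and *Traf3*. Windows are shown for 3 members that were lower without overlap (*Tlr2*, *Rel* and *Nfkbie*) and for 2 of the most abundant members of the feedback layer, whose genotypes overlapped (*Nfkbia* and *Tnip1*). Each reads 5′ to 3′ on the strand of its gene, with matches in capitals, and bases that the GENCODE annotation places in an exon were left out.
Tlr2: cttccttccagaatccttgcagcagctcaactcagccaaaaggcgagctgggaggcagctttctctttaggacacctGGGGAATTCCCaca
Rel: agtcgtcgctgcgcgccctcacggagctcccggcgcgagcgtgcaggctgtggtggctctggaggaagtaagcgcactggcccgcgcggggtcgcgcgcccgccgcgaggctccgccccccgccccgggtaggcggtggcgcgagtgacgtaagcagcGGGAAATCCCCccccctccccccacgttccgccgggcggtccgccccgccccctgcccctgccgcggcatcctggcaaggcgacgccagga
Nfkbie: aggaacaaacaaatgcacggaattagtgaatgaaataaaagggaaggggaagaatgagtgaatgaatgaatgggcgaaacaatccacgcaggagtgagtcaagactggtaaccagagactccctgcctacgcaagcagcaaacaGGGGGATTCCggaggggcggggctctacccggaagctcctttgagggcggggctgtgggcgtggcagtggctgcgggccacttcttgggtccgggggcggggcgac
Nfkbia: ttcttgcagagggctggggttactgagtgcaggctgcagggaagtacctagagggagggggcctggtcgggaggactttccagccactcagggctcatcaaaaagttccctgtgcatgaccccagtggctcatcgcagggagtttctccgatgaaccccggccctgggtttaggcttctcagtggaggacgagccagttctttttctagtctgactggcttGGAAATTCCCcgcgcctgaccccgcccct
Tnip1: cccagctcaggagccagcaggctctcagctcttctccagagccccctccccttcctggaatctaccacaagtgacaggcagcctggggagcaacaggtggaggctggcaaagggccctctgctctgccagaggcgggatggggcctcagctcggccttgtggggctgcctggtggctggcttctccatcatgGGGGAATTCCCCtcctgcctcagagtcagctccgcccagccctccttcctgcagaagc
The *Tlr2* window lies at chr3:83841768-83841858 on the minus strand, that of *Rel* at chr11:23770971-23771219 (minus), that of *Nfkbie* at chr17:45555450-45555699 (plus), that of *Nfkbia* at chr12:55492648-55492897 (minus) and that of *Tnip1* at chr11:54962941-54963190 (minus). The capitals of *Rel* and *Tlr2* run over 11 bases and those of *Tnip1* over 12, because matches that overlap by all but 1 or 2 bases were joined. *Nfkb2*, also lower without overlap, held matches too, but none that lay wholly outside annotated exons. Among the windows shown, a match thus stood in promoters of both kinds. These windows were picked from members with a match, so they do not show how matches are spread over the kinds. Each is a match of letters and not evidence of binding.

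The 9 Toll-like receptors spanned more than 3 orders of magnitude in level. *Tlr1*, whose protein pairs with TLR2 on bacterial lipoproteins, was the highest, at 28.5, 31.9 and 29.4 FPKM in *Zfp90*fl/fl and 25.6, 27.3 and 30.5 FPKM in *Zfp90*ΔIEC replicates 1, 2 and 3. The genotypes overlapped, with a difference of -0.10 (95% confidence interval -0.29 to 0.08, adjusted p = 0.597). *Tlr1* and *Tlr6* are near copies over part of their length: 15.4% of the 50-base words of *Tlr1* transcripts and 12.3% of those of *Tlr6* also occur in another gene, nearly all of them in the other of the pair, so a share of their fragments could have been assigned to either.

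*Tlr2*, the receptor for lipoproteins and other cell wall components (ENSMUSG00000027995), was at 8.19, 8.82 and 9.903 FPKM in *Zfp90*fl/fl replicates 1, 2 and 3. In *Zfp90*ΔIEC replicates 1, 2 and 3 it measured 6.12, 5.497 and 7.100 FPKM. The lowest *Zfp90*fl/fl mouse thus lay above the highest *Zfp90*ΔIEC mouse, and the means were 8.97 ± 0.867 and 6.24 ± 0.808 FPKM (SD, n = 3 each). The difference of -0.46 (95% confidence interval -0.71 to -0.22) had an unadjusted p of 0.00266 and an adjusted p of 0.121 from limma, and none of the 13 alternative settings brought it past the threshold. Its promoter match lies within the window printed above, next to the first annotated exon.

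*Tlr3*, the endosomal receptor for double-stranded RNA, was at 5.92, 7.72 and 7.42 FPKM in *Zfp90*fl/fl and 7.63, 5.78 and 6.74 FPKM in *Zfp90*ΔIEC mice. *Tlr5*, the flagellin receptor, was at 1.39, 1.22 and 1.22 FPKM and 1.43, 1.299 and 1.44 FPKM in the same order. Both overlapped between genotypes, with adjusted p-values of 0.869 and 0.717.

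*Tlr4*, the receptor that binds LPS together with CD14 and MD-2, varied more between mice of 1 genotype than nearly any gene. In the *Zfp90*fl/fl mice its level was 4.72, 1.57 and 5.56 FPKM (replicates 1, 2 and 3), and in the *Zfp90*ΔIEC mice it was 3.52, 3.06 and 0.606 FPKM. *Zfp90*fl/fl replicate 2 was below 2 of the *Zfp90*ΔIEC mice, and *Zfp90*ΔIEC replicate 3 was the lowest of all, with 9.18-fold between the highest and the lowest library. The difference of -0.57 had a 95% confidence interval of -1.72 to 0.58 and an adjusted p of 0.64, so neither a fall of the size seen in *Cd14* nor a small rise lay outside the interval. Its spread within genotypes lay at percentile 99.5 of all genes tested, and its values rest on an estimated 69 to 640 fragments per library, taken over its longest transcript.

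The other 4 receptors were scarcely detected. *Tlr6*, the second partner of TLR2, was at 0.269, 0.246 and 0.255 FPKM in *Zfp90*fl/fl and 0.2795, 0.383 and 0.235 FPKM in *Zfp90*ΔIEC mice. *Tlr7*, *Tlr8* and *Tlr9*, the endosomal receptors for single-stranded RNA and for DNA, did not exceed 0.164 FPKM in any library, which corresponds to at most an estimated 15.8 fragments. *Tlr9* was listed at 0 in 1 *Zfp90*fl/fl and 2 *Zfp90*ΔIEC libraries, and *Tlr7* in 1 *Zfp90*fl/fl library. No difference between genotypes can be read from such values.

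Ordered by level, the *Zfp90*fl/fl mice had *Tlr1*, *Tlr2*, *Tlr3*, *Tlr4* and *Tlr5*, with no overlap between neighbours in this order. In the *Zfp90*ΔIEC mice *Tlr3* stood beside *Tlr2*, and their ranges overlapped, as did those of *Tlr4* and *Tlr5*. Summed over the 9 receptors, levels were 49.1 to 54.0 FPKM in *Zfp90*fl/fl and 43.4 to 46.7 FPKM in *Zfp90*ΔIEC mice, which is 87.1% of the *Zfp90*fl/fl mean. More of this sum came from *Tlr1* than from the other 8 together in both genotypes.

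**Figure D2:**
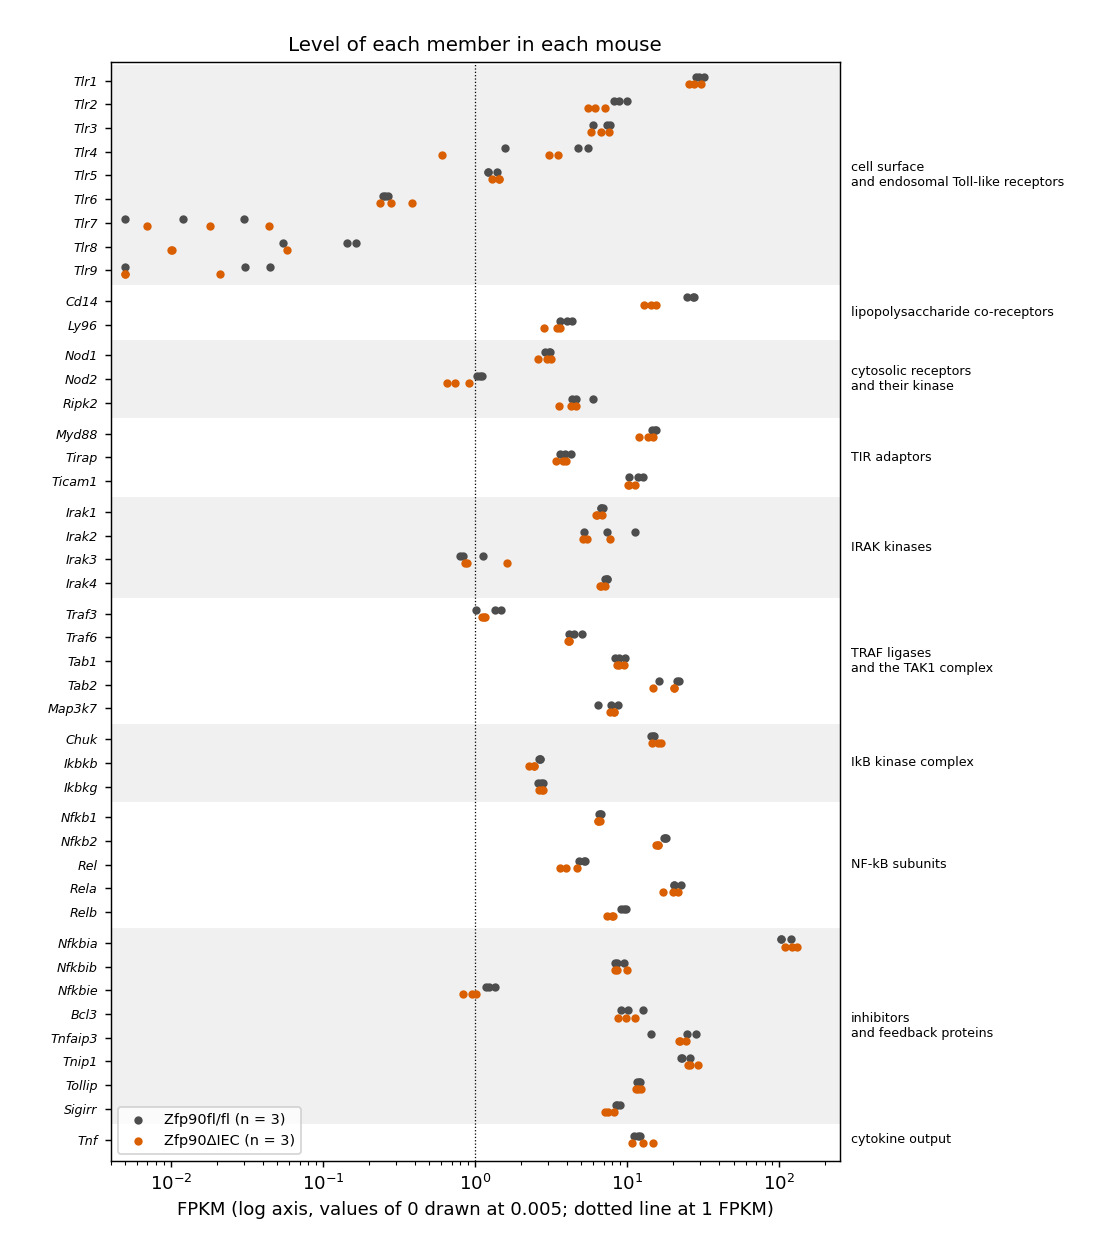
FPKM of each of the 43 members (x axis, log scale, values of 0 drawn at 0.005) in each of the 3 *Zfp90*fl/fl mice (grey) and 3 *Zfp90*ΔIEC mice (orange), by layer. *Nfkbia* is the highest in all 6 mice, *Tlr7*, *Tlr8* and *Tlr9* lie far below the dotted line at 1 FPKM, and *Cd14* and *Tlr2* show separate groups of points.

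CD14 hands LPS to the complex of TLR4 and MD-2 and also serves TLR2. *Cd14* (ENSMUSG00000051439) was the third most abundant of all members in *Zfp90*fl/fl mice, at 24.5, 27.3 and 27.1 FPKM in replicates 1, 2 and 3. In *Zfp90*ΔIEC replicates 1, 2 and 3 it was at 14.4, 12.9 and 15.5 FPKM. The gap between the genotypes was wider than the spread within either one, and the means were 26.3 ± 1.54 and 14.2 ± 1.29 FPKM (SD, n = 3 each), a fall of 45.9%. On the log2(FPKM + 1) scale the difference was -0.84 (standard error 0.0807, 95% confidence interval -1.03 to -0.65, adjusted p = 0.0219). The call is near its threshold: the adjusted p was 0.0779 without *Zfp90*fl/fl replicate 2, 0.0618 without *Zfp90*fl/fl replicate 3, 0.056 without *Zfp90*ΔIEC replicate 1 and 0.0597 with no filter on low genes, and the difference stayed between -0.90 and -0.78 in all 13 alternatives.

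*Ly96*, which encodes MD-2, the part of the receptor complex that holds LPS, was at 3.62, 4.35 and 4.002 FPKM in *Zfp90*fl/fl and 3.602, 2.84 and 3.44 FPKM in *Zfp90*ΔIEC replicates 1, 2 and 3. The genotypes did not overlap, though *Zfp90*fl/fl replicate 1 and *Zfp90*ΔIEC replicate 1 nearly touched and the ranges overlapped under median ratio scaling, and the difference of -0.22 did not pass the test, with an unadjusted p of 0.0518 and an adjusted p of 0.346 from limma.

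*Cd14* is carried by macrophages and monocytes as well as by epithelial cells, and markers of these leukocytes were also lower in *Zfp90*ΔIEC mice. The 10 macrophage and monocyte markers summed to 8.41 to 11.3 FPKM in *Zfp90*fl/fl and 3.43 to 4.74 FPKM in *Zfp90*ΔIEC mice, 44.6% of the *Zfp90*fl/fl mean. All 10 had the lower mean in *Zfp90*ΔIEC mice and 6 did so without overlap, *Itgam*, *Csf1r*, *Lyz2* and *C1qb* among them. Of all genes tested, 57.2% had a difference below 0 and 12.6% were lower without overlap. However, 7 of the 10 markers lay below the filter and were not tested, *Itgam*, *Csf1r* and *C1qb* among them. The defining marker *Adgre1* was at most 0.186 FPKM in any library and listed at 0 in *Zfp90*ΔIEC replicate 2. The 6 markers shared by leukocytes, such as *Ptprc* and *Laptm5*, summed to 5.35 to 5.69 and 2.19 to 3.72 FPKM, and 5 of the 6 were lower without overlap. Of these 6, 5 lay below the filter, and *Laptm5* passed it through its *Zfp90*fl/fl values alone. Among 8 neutrophil markers, *S100a8*, *S100a9*, *Csf3r* and 4 others summed to 1.23 to 2.47 FPKM in *Zfp90*fl/fl and 0 to 0.03003 FPKM in *Zfp90*ΔIEC mice, whereas *Ly6g*, left out of that sum after its values were seen, was at 21.9 to 44.7 FPKM and overlapped. With *Ly6g* the list summed to 25.2 to 47.2 FPKM in *Zfp90*fl/fl and 21.9 to 33.0 FPKM in *Zfp90*ΔIEC mice, which overlapped. *Mpo* and *Elane*, at most 0.0256 FPKM in any library, had the higher mean in *Zfp90*ΔIEC mice. The part of these cells in the *Cd14* and *Tlr2* values was not tested.

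**Figure D3:**
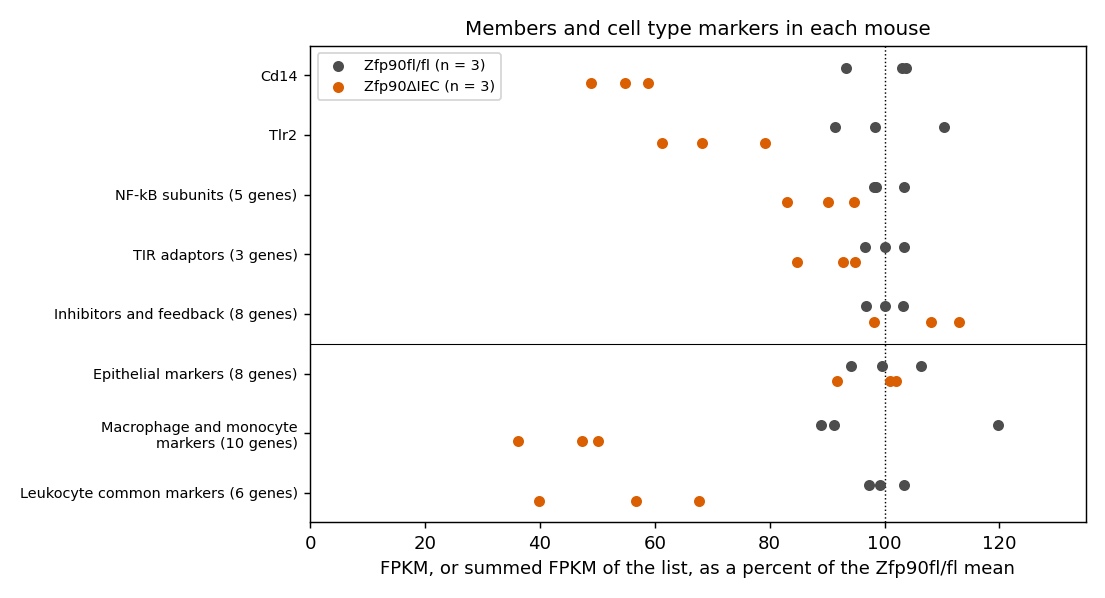
Level in each mouse as a percent of the *Zfp90*fl/fl mean (x axis), for *Cd14*, *Tlr2* and the summed FPKM of 3 pathway layers above the line and of 3 marker lists below it. *Cd14*, *Tlr2*, the NF-κB subunits, the adaptors, the macrophage and monocyte markers and the leukocyte markers form separate groups by genotype (the adaptors not under median ratio scaling). The inhibitors and the epithelial markers overlap.

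NOD1 and NOD2 sense fragments of bacterial cell wall in the cytosol and signal to NF-κB through the kinase RIPK2. *Nod2* was at 1.07, 1.11 and 1.03 FPKM in *Zfp90*fl/fl and 0.649, 0.737 and 0.916 FPKM in *Zfp90*ΔIEC replicates 1, 2 and 3. Each *Zfp90*ΔIEC mouse was below each *Zfp90*fl/fl mouse, with a difference of -0.23 (95% confidence interval -0.43 to -0.03, unadjusted p of 0.0304 and adjusted p of 0.291 from limma). *Nod1*, at 3.13, 3.08 and 2.87 FPKM and 2.95, 2.59 and 3.16 FPKM, overlapped between genotypes, and so did *Ripk2*, at 4.34, 4.63 and 5.96 FPKM and 3.56, 4.58 and 4.296 FPKM. Neither passed the test (adjusted p = 0.814 and 0.479).

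Downstream of the receptors, the 15 adaptor and kinase members, from *Myd88* to the IκB kinases, gave no call. The 14 that could be tested had differences of -0.30 to 0.08 and a lowest adjusted p of 0.436, and the smallest unadjusted p among them was 0.0982. *Myd88*, the adaptor shared by most Toll-like receptors, was at 15.4, 15.2 and 14.6 FPKM in *Zfp90*fl/fl and 12.04, 13.8 and 14.8 FPKM in *Zfp90*ΔIEC replicates 1, 2 and 3. The 95% confidence interval of its difference, -0.34 to 0.04, covers 0 (adjusted p = 0.442).

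*Tirap*, which brings MyD88 to TLR2 and TLR4, had intervals of the same kind (-0.25 to 0.12, adjusted p = 0.738), and so had *Ticam1*, the TRIF adaptor used by TLR3 and TLR4 (-0.32 to 0.08, adjusted p = 0.567). As a sum, the 3 adaptors were at 29.5 to 31.6 FPKM in *Zfp90*fl/fl and 25.9 to 29.0 FPKM in *Zfp90*ΔIEC mice, without overlap on the deposited scale, although each adaptor alone overlapped and the sums overlapped under median ratio scaling. Exons of *Myd88* and *Tirap* overlap genes on the opposite strand, as do those of *Tlr3*, *Irak2*, *Irak3*, *Irak4*, *Ikbkg*, *Nfkb2*, *Nfkbib* and *Bcl3*, and the sources used here do not say whether fragments were counted by strand.

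Among the IRAK kinases, which bind MyD88 and hand the signal on, *Irak1* was at 6.19 to 6.95 FPKM and *Irak4* at 6.59 to 7.39 FPKM over all 6 mice. *Irak2* was less steady, at 7.42, 11.2 and 5.18 FPKM in *Zfp90*fl/fl and 5.43, 5.13 and 7.67 FPKM in the *Zfp90*ΔIEC mice, and its spread within genotypes lay at percentile 96.9 of all genes tested. *Irak3*, a brake on this step that is best known from macrophages, was below the filter, at 0.8298, 1.12 and 0.789 FPKM and 1.61, 0.8903 and 0.851 FPKM. None of the 4 separated the genotypes.

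The ubiquitin ligases TRAF6 and TRAF3 and the TAK1 kinase with its partners TAB1 and TAB2 form the next step. *Traf6* was at 4.07 to 5.07 FPKM, *Traf3* at 1.012 to 1.48 FPKM, *Map3k7*, the TAK1 gene, at 6.39 to 8.76 FPKM, *Tab1* at 8.37 to 9.68 FPKM and *Tab2* at 14.9 to 22.0 FPKM over all 6 mice, and all 5 overlapped between genotypes. *Tab1* was the closest to 0, with a 95% confidence interval of -0.17 to 0.18. Of the IκB kinase complex, *Chuk* (IKKα, 14.4, 14.8 and 15.1 and 14.4, 15.9 and 16.7 FPKM) and *Ikbkg* (the regulatory subunit NEMO, 2.61, 2.704 and 2.77 and 2.65, 2.79 and 2.76 FPKM) overlapped. *Ikbkb*, the IKKβ catalytic subunit, was at 2.66, 2.63 and 2.68 FPKM in *Zfp90*fl/fl and 2.44, 2.25 and 2.44 FPKM in *Zfp90*ΔIEC replicates 1, 2 and 3, lower without overlap, with an unadjusted p of 0.0982 and an adjusted p of 0.436 from limma.

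All 5 NF-κB subunit genes had a lower mean in *Zfp90*ΔIEC mice, and 3 of them were lower without overlap, where 57.2% of all genes tested had a difference below 0 and 12.6% were lower without overlap. *Rela*, the main activating subunit of the canonical dimer, was the most abundant, at 20.2, 20.2 and 22.6 FPKM in *Zfp90*fl/fl and 17.1, 19.9 and 21.6 FPKM in *Zfp90*ΔIEC replicates 1, 2 and 3, and overlapped (adjusted p = 0.654). *Nfkb1*, the precursor of p50 and the partner of RelA, was nearly level, at 6.68, 6.63 and 6.54 FPKM and 6.39, 6.47 and 6.62 FPKM. Its 95% confidence interval, -0.15 to 0.10, is among the narrowest of the members.

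*Nfkb2*, the p100 precursor of the non-canonical subunit p52, was at 17.5, 17.6 and 17.99 FPKM in *Zfp90*fl/fl and 15.4, 15.8 and 15.9 FPKM in *Zfp90*ΔIEC replicates 1, 2 and 3. Within each genotype the mice differed little, with a spread at percentile 0.43 of all genes tested, and the gap was -0.16 (95% confidence interval -0.28 to -0.05, unadjusted p of 0.013 and adjusted p of 0.209 from limma). *Relb*, its partner in the non-canonical dimer, was at 9.87, 9.16 and 9.56 FPKM and 7.32, 7.98 and 8.03 FPKM, again without overlap, with a difference of -0.26 (95% confidence interval -0.41 to -0.12, unadjusted p of 0.0036 and adjusted p of 0.131 from limma). *Rel*, which encodes c-Rel, a subunit best known from lymphoid and myeloid cells, was at 4.83, 5.19 and 5.305 FPKM and 3.61, 3.97 and 4.67 FPKM, with a difference of -0.27 (95% confidence interval -0.48 to -0.06, unadjusted p of 0.0184 and adjusted p of 0.244 from limma).

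The 3 subunits were thus 11.3% to 20.1% lower in the mean but short of the adjusted threshold in all 13 alternatives. The 5 subunits summed to 58.8 to 62.0 FPKM in *Zfp90*fl/fl and 49.8 to 56.8 FPKM in *Zfp90*ΔIEC mice, 89.3% of the *Zfp90*fl/fl mean. The leukocyte markers given with *Cd14* were lower as well, and their part in these values was not tested.

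**Figure D4:**
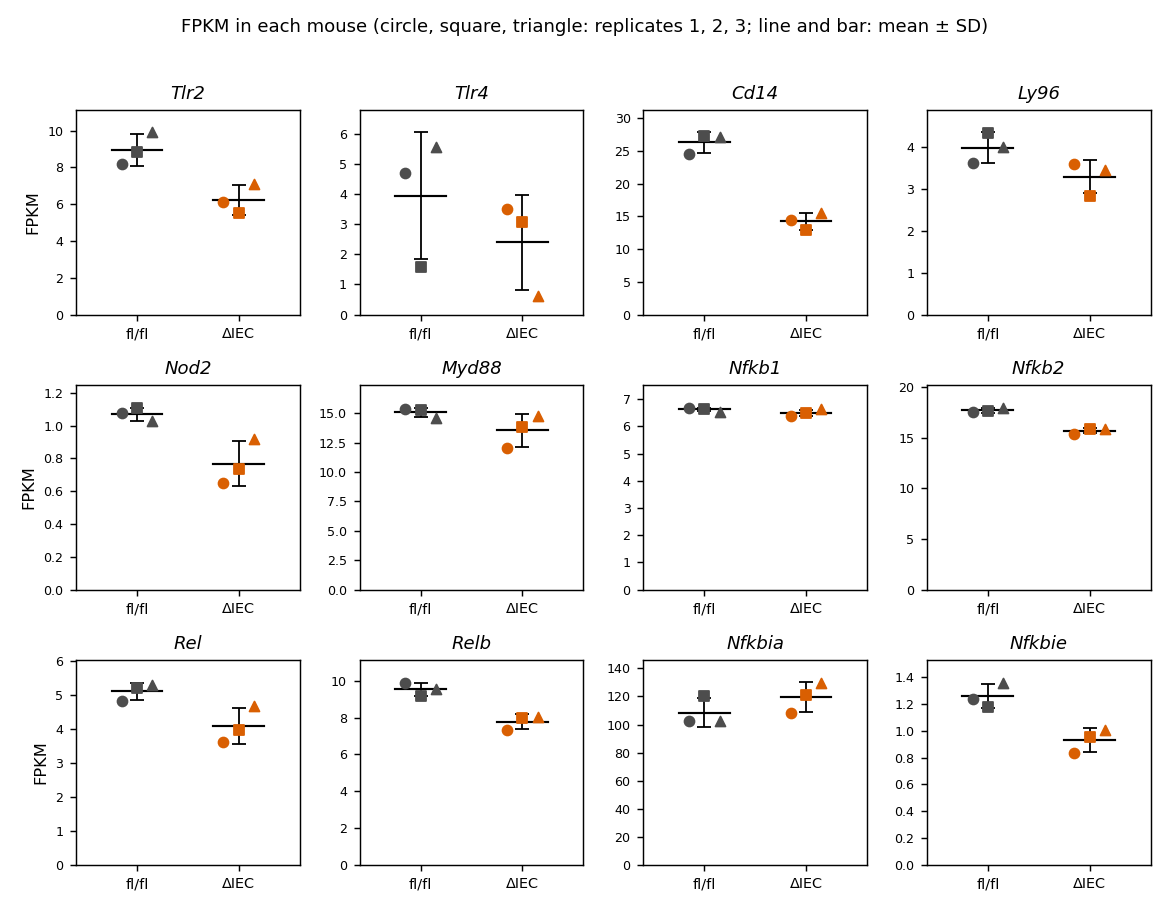
FPKM (y axis, from 0) of 12 members in each mouse, with circles, squares and triangles for replicates 1, 2 and 3 and the mean ± SD as a line and bar (n = 3 per genotype). *Tlr2*, *Cd14*, *Ly96*, *Nod2*, *Nfkb2*, *Rel*, *Relb* and *Nfkbie* separate by genotype (*Ly96* not under median ratio scaling), while *Tlr4*, *Myd88*, *Nfkb1* and *Nfkbia* overlap.

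The inhibitors and feedback proteins, several of which NF-κB is known to induce, did not lie on one side, with 4 of the 8 at a lower and 4 at a higher mean. *Nfkbia*, the classical IκB inhibitor and an early NF-κB target, was the most abundant member, at 103, 120.3 and 102 FPKM in *Zfp90*fl/fl and 108, 121 and 129.8 FPKM in *Zfp90*ΔIEC replicates 1, 2 and 3. The genotypes overlapped, with a difference of 0.14 (95% confidence interval -0.08 to 0.36, adjusted p = 0.539), so the interval reaches further above 0 than below it. *Tnip1*, a partner of A20, was at 23.02, 25.9 and 22.5 FPKM and 25.1, 25.7 and 29.3 FPKM, with a difference of 0.16 (adjusted p = 0.442). *Tnfaip3*, which encodes the ubiquitin-editing brake A20, was at 24.9, 14.3 and 28.4 FPKM in *Zfp90*fl/fl mice, where replicate 2 stood far below the others, and at 22.2, 24.5 and 22.1 FPKM in *Zfp90*ΔIEC mice.

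*Nfkbie*, the IκBε gene, was the least abundant of the layer, at 1.24, 1.18 and 1.36 FPKM in *Zfp90*fl/fl and 0.835, 0.951 and 1.01 FPKM in *Zfp90*ΔIEC replicates 1, 2 and 3. There was no overlap, and the difference was -0.23 (unadjusted p of 0.0221 and adjusted p of 0.26 from limma). *Sigirr*, a membrane protein of the epithelium that damps signalling by Toll-like and IL-1 receptors, was at 8.49, 8.94 and 8.57 FPKM and 7.43, 8.198 and 7.09 FPKM, also without overlap, with a difference of -0.17 (unadjusted p of 0.0341 and adjusted p of 0.306 from limma). The promoters of *Nfkbia* and *Nfkbie* printed above both hold a κB match, while their differences had opposite signs, neither of them past the adjusted threshold. *Nfkbib*, the IκBβ gene, *Bcl3*, an atypical IκB protein, and *Tollip*, an adaptor that restrains IRAK1, overlapped, with differences of 0.02, -0.09 and 0.00.

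*Tnf*, the cytokine at the end of the pathway and itself an activator of NF-κB, was at 11.7, 12.2 and 11.1 FPKM in *Zfp90*fl/fl and 10.8, 14.8 and 12.8 FPKM in *Zfp90*ΔIEC replicates 1, 2 and 3. The genotypes overlapped, and the difference of 0.11 had a 95% confidence interval of -0.15 to 0.37 (adjusted p = 0.687).

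By layer, the summed levels of the LPS co-receptors (57.9% of the *Zfp90*fl/fl mean), the Toll-like receptors (87.1%) and the NF-κB subunits (89.3%) were lower in every *Zfp90*ΔIEC mouse than in any *Zfp90*fl/fl mouse. Those of the cytosolic receptors (86.1%) and the adaptors (90.8%) were so too on the deposited scale, but overlapped under median ratio scaling, where the adaptors were at 29.08 to 30.96 FPKM in *Zfp90*fl/fl and 25.8 to 29.4 FPKM in *Zfp90*ΔIEC mice and the cytosolic receptors at 8.41 to 9.805 and 7.13 to 8.49 FPKM. Under that scaling the NF-κB subunits nearly touched, at 57.69 FPKM in the lowest *Zfp90*fl/fl and 57.58 FPKM in the highest *Zfp90*ΔIEC mouse. The other 5 overlapped, from the IRAK kinases (89.5%) and the TRAF and TAK1 layer (96.2%) to the IκB kinases (103.5%), the inhibitors (106.4%) and *Tnf* (109.4%). These sums are given without a test, and the abundant genes of a layer set most of its sum.

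Other genes of the pathway were taken from a list of 68 further receptors, adaptors, regulators and IL-1 receptor genes, of which 47 could be tested. At an adjusted p under 0.05, 0 of the 47 passed in limma, and at an unadjusted p under 0.05, 10 were lower and 2 higher (21.3% and 4.26% of the 47, against 8.09% and 6.56% of all genes tested). The 5 genes with the smallest p were *Il1rn*, *Nfkbiz*, *Zc3h12a*, *Traf1* and *Alpk1*. *Nfkbiz*, the atypical IκB protein IκBζ that NF-κB induces, was at 40.3, 46.2 and 40.5 FPKM in *Zfp90*fl/fl and 30.1, 30.3 and 31.6 FPKM in *Zfp90*ΔIEC replicates 1, 2 and 3 (log2 difference -0.45, adjusted p = 0.0664). *Zc3h12a*, the RNase Regnase-1 that degrades inflammatory mRNAs, was at 34.9, 42.2 and 37.7 FPKM and 19.2, 20.5 and 25.8 FPKM (log2 difference -0.79, adjusted p = 0.0664). Both separated the genotypes by more than the spread within either.

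*Il1rn*, the antagonist of the IL-1 receptor, was at 6.79, 6.88 and 6.36 FPKM in *Zfp90*fl/fl and 3.63, 4.72 and 3.83 FPKM in *Zfp90*ΔIEC replicates 1, 2 and 3 (log2 difference -0.61, adjusted p = 0.0664). *Alpk1*, the cytosolic sensor of a bacterial sugar made on the way to LPS, was at 6.98, 6.14 and 7.199 FPKM and 5.51, 4.74 and 5.195 FPKM (log2 difference -0.34, adjusted p = 0.134). *Traf1*, a TRAF protein of TNF receptor signalling, was the exception, at 1.46, 1.499 and 1.201 FPKM in *Zfp90*fl/fl and 2.16, 2.03 and 1.97 FPKM in *Zfp90*ΔIEC mice (log2 difference 0.36, adjusted p = 0.12), higher without overlap. Leaving out *Zfp90*ΔIEC replicate 2 brought *Il1rn* past the threshold (adjusted p = 0.0437), and leaving out *Zfp90*ΔIEC replicate 3 brought *Zc3h12a* past it (adjusted p = 0.0483).

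A list of 40 genes that NF-κB is known to transcribe in epithelium or leukocytes gave 24 that could be tested, of which 3 fell and 0 rose at an adjusted p under 0.05, and 11 were lower and 0 higher at an unadjusted p under 0.05. Some of these genes had stood out in earlier results of the same samples, so the count is not independent evidence of a direction, and *Il1b*, *Nos2* and *Saa3* were tested only because their *Zfp90*fl/fl values reached 1 FPKM. Without these 3 genes the counts were 1 and 8 lower of 21, against 0.13% and 8.09% of all genes tested. The 8 still hold *C3* and *Cxcl2*, whose *Zfp90*ΔIEC values alone would not have passed the filter. *C3* reached 1 FPKM there only in replicate 1 (1.105 FPKM), and *Cxcl2* fell short in replicate 2 (0.674 FPKM). The leukocyte markers given with *Cd14* were lower as well, at 44.6% of the *Zfp90*fl/fl mean for macrophages and monocytes and 54.8% for leukocytes in common. The neutrophil list was at 1.05% without *Ly6g*, and at 81.6% with *Ly6g*, where the genotypes overlapped. The part of these cells in the values of these targets and of *Il1rn* was not tested. *Il1b*, the cytokine IL-1β, fell from 3.67, 4.18 and 3.08 FPKM in *Zfp90*fl/fl to 0.1995, 0.508 and 0.537 FPKM in *Zfp90*ΔIEC replicates 1, 2 and 3 (log2 difference -1.72, adjusted p = 0.00823). *Duox2*, an epithelial oxidase that makes hydrogen peroxide, fell from 22.5, 26.1 and 30.6 FPKM to 9.804, 8.58 and 10.4 FPKM (log2 difference -1.36, adjusted p = 0.0137), though not past the threshold without *Zfp90*fl/fl replicate 2 (adjusted p = 0.051) or with no filter (adjusted p = 0.0589). *Nos2*, the inducible nitric oxide synthase, fell from 1.799, 1.400 and 2.09 FPKM to 0.316, 0.161 and 0.423 FPKM (log2 difference -1.08, adjusted p = 0.0434), and passed in 4 of the 13 alternatives and in none that left out a mouse, where its adjusted p was 0.0507 to 0.134.

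The 5 targets with the smallest p also held *Irf1*, a transcription factor of interferon responses, at 32.2, 36.3 and 41.2 FPKM in *Zfp90*fl/fl and 19.9, 17.6 and 23.7 FPKM in *Zfp90*ΔIEC mice (log2 difference -0.82, adjusted p = 0.0664). *Duoxa2*, the maturation factor of DUOX2, was at 13.96, 17.5 and 23.5 FPKM and 2.01, 3.19 and 6.27 FPKM (log2 difference -2.07, adjusted p = 0.0664). Neither overlapped between genotypes, and *Duoxa2* passed without *Zfp90*ΔIEC replicate 3 (adjusted p = 0.0403). Over the 21 targets left without *Il1b*, *Nos2* and *Saa3* the median difference was -0.11, against -0.02 over all genes tested, and with these 3 included it was -0.27.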

How the data were processed

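Colon epithelium was freed from the colon of 6 AOM-DSS-treated mice with EDTA and DTT, and its RNA was sequenced as paired reads of 150 bp. The authors deposited 1 table per mouse with an FPKM for each of 52550 mouse gene identifiers. The tables do not name the unit, which was taken from the study's methods after a look at the values. The study's methods name TopHat, a human genome and Cuffdiff, whereas the submitters' processing notes name FastQC, STAR 2.5, Cuffnorm, DESeq 1.22.1 and mm9, so the aligner, build and strand setting behind the values are not settled here. Gene symbols and positions came from GENCODE M21 (GRCm38) by identifier, for 52403 of the 52550. The tables hold only FPKM, so depth was estimated from the steps between low values of single-transcript genes, and fragments per gene from that depth and the longest transcript.

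Values were transformed to log2(FPKM + 1), where 1 is the pseudocount, and the 11564 genes that reached 1 FPKM in 3 or more samples were tested with limma 3.58.1 (intensity trend, genotype as the only term) in R 4.3.3, with Benjamini-Hochberg adjustment over all of them. Members below the filter are given by their values. Groups came from the sample titles, and since nothing in the labels links replicates to litters or days, p-values measure the spread between these mice. The test was tried on simulated data before use. Alternatives were a pseudocount of 0.1, no filter, a filter of 0.1 FPKM, quantile normalization, median ratio scaling, the replicate number as a block, no intensity trend, and each mouse left out in turn.

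The 43 members, the wider list of 68 genes, the 40 NF-κB targets and the marker lists were chosen with earlier results of these data known, so lists and sums have no test. All members are named, and from the other lists the genes past the threshold and the 5 with the smallest p. *Ly6g* was set apart after its values were seen. Besides the marker lists in the report, the summed level in *Zfp90*ΔIEC mice was 73.3% of the *Zfp90*fl/fl mean for 8 T cell, 24.0% for 7 B and plasma cell, 25.3% for 5 dendritic cell, 88.8% for 8 fibroblast and muscle and 132.9% for 5 endothelial markers. All of these lists but the T cell list summed to under 1 FPKM in every library. Of the endothelial markers 4 had the lower mean in *Zfp90*ΔIEC mice, and the higher sum came from *Pecam1*, at means of 0.257 and 0.458 FPKM.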

Additional observations from a re-analysis of the deposited data

How the results depend on the processing

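Depth limits *Tlr6* to *Tlr9*, which rest on at most an estimated 40.4 fragments per library. The number of genes past the threshold, 23 as reported, was 13 with a pseudocount of 0.1, 15 with no filter and 47 with the replicate block, and 10 to 21 when a mouse was left out, with the fewest without *Zfp90*fl/fl replicate 2. For the members the count of 1 went to 0 with no filter and was 0 to 1 with a mouse left out, *Cd14* being the gene each time. Members at an unadjusted p under 0.05, 8 as reported, numbered 4 to 8 with a mouse left out, and those without overlap, 10 as reported, 12 to 16. Leaving out a mouse cannot make separate ranges overlap, so the count without overlap could only stay or rise and does not measure stability. The wider pathway went from 0 to 1 with a filter of 0.1 FPKM (*Il1r2*) and was 0 to 1 with a mouse left out (*Azi2* without *Zfp90*fl/fl replicate 3, *Il1rn* and *Zc3h12a* as given in the report). The NF-κB targets went from 3 to 1 with no filter and to 6 with the replicate block, and were 1 to 3 with a mouse left out. The other 68 of these 85 comparisons kept their call or moved by less than their limit, and no result changed direction. Under median ratio scaling the members without overlap were 9 (*Ly96* overlapped), and the sums of the adaptors and of the cytosolic receptors also overlapped. Apart from the rise in the count without overlap when a mouse was left out, the cause of these shifts was not tested.

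Replicate numbers were not taken as pairs, since the deviations of same-numbered mice from their group means correlated at 0.194, 0.11 and 0.0782 over genes, although each mouse correlated best with its own number, a hint from the data only. With the replicate block, *Cd14* kept an adjusted p of 0.0414, and *Irf1* and *Duoxa2* passed with adjusted p-values of 0.0487 and 0.0268, as did *Saa3*. The block changed no other call among the members and the genes named.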

Other observations

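Further members of the NF-κB target list, chosen after their values were seen, also separated the genotypes. *Pigr*, the receptor that carries IgA across the epithelium, made up most of the summed level of that list, at 1661, 1633 and 1582 FPKM in *Zfp90*fl/fl and 1138, 1045 and 1274 FPKM in *Zfp90*ΔIEC replicates 1, 2 and 3 (log2 difference -0.50, adjusted p = 0.069 from limma). The chemokine *Ccl28* was at 48.2, 45.6 and 46.9 FPKM and 28.1, 22.4 and 37.1 FPKM (-0.69, adjusted p = 0.134). *Sod2*, the mitochondrial superoxide dismutase, lay on the other side, at 18.6, 17.2 and 18.02 FPKM and 19.8, 19.7 and 18.9 FPKM (0.11, adjusted p = 0.408).

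*Il1r2*, the decoy receptor for IL-1, lay below the filter, at 0.848, 0.804 and 0.766 FPKM in *Zfp90*fl/fl and 0.00960, 0.224 and 0.1501 FPKM in *Zfp90*ΔIEC replicates 1, 2 and 3. In the *Zfp90*fl/fl mice, *Azi2*, an adaptor of the kinase TBK1, was at 11.4, 11.6 and 6.72 FPKM, with replicate 3 beside the *Zfp90*ΔIEC values of 7.13, 6.81 and 6.77 FPKM.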
